A study of Homo sapiens with 12 samples.

Results

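CAPN6 and the other genes of the calpain system were followed in uterine leiomyosarcoma (uLMS) cells given a BET inhibitor. The set held 9 of the 22784 gene symbols in the expression table: the large subunits CAPN1, CAPN2, CAPN5, CAPN6, CAPN7, CAPN10 and CAPN15, the small subunit CAPNS1 and the inhibitor CAST. CAPN6 was selected on its own levels, since its RNA was lost in the treated cells of these same libraries, and those levels are given as a description without a test. The other 8 genes are relatives of CAPN6 and the small subunit and inhibitor of other calpains, all with RNA in these cells. All 8 were tested within a fit over all genes.

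Calpains are calcium-dependent cysteine proteases of the cytosol that cut their substrates at a few sites, which reshapes rather than degrades them. The conventional calpains, CAPN1 and CAPN2, each pair with CAPNS1, and both are held in check by calpastatin, the product of CAST. In smooth muscle and other contractile cells they are known for cutting proteins of focal adhesions and the cytoskeleton, such as talin, filamin and desmin. CAPN6 is an unusual member: it lacks the catalytic cysteine, and it is known for stabilizing microtubules and for binding ARHGEF2 (GEF-H1), an activator of the small GTPase RHOA.

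SK-UT-1, an established human uLMS cell line, was treated for 48 h with the vehicle DMSO, with 5 µM JQ1 or with 5 µM I-BET 762, and total RNA was sequenced. JQ1 and I-BET 762 are small molecules that both occupy the acetyl-lysine pocket of the bromodomains of BET proteins. Of the 12 samples labelled, 4 per group, 10 libraries were analysed here: 3 DMSO, 4 JQ1 and 3 I-BET 762. All groups share the same line and duration, and the labels do not say whether the libraries came from separate cultures, so p-values measure the spread between these samples, which may be technical.

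Promoter sequences of CAPN6, CAPN1 and CAPN7 are given to set the gene that was lost beside a gene that fell and a gene that was higher after treatment. Each runs 5′ to 3′ from 250 bases before to 50 bases after a RefSeq transcript start in GRCh38.p14, with CpG dinucleotides in capitals.
CAPN6, chrX:111270434-111270733, minus strand: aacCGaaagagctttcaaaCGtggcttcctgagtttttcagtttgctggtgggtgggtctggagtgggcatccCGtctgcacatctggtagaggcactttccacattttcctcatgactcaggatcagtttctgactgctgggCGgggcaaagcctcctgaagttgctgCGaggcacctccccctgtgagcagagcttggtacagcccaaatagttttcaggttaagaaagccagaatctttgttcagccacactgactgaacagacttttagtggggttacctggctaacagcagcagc
CAPN1, chr11:65181678-65181977, plus strand: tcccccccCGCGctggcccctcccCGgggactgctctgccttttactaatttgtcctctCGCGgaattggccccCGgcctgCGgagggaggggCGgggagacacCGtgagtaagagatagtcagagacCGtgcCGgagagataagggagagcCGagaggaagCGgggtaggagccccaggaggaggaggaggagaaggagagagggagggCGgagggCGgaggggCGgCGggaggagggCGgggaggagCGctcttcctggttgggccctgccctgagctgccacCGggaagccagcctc
CAPN7, chr3:15205996-15206295, plus strand: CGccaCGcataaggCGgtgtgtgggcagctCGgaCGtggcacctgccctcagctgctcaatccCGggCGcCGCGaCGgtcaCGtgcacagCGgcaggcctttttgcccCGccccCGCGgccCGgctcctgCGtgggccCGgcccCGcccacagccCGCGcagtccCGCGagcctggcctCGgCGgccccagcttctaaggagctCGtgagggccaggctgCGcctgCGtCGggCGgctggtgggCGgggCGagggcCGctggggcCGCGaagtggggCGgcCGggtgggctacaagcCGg
The CAPN6 window held 5 CpG and 51.7% G or C, against 20 CpG and 69.0% in the CAPN1 window and 38 CpG and 77.0% in the CAPN7 window. CAPN1 had further entries for other starts, with 26 and 28 CpG. Over 35116 promoter windows of the same length the median was 14 CpG, and 33.7% held no more than CAPN6. Among 5 motifs searched on both strands after the sequences had been seen, the CAPN6 window contained GGGCGG, present in 45.0% of all promoter windows, and TGACTCA, present in 4.95%. It contained no TATAAA (found in 11.5% of the windows), no CCAAT (34.6%) and no CACGTG (7.26%). Entries of CAPN2, CAST and CAPNS1 also contained TGACTCA. Of the 9 genes, 8 had 16 promoter entries in the table, and CAPN5 had none. The CpG number ranged from 2 to 45 between the entries of the other genes, and both extremes belonged to alternative starts of CAPN2. These matches describe the letters only.

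Library depth, as reads on genes, lay between 35564586 and 38899935 for DMSO, between 35691648 and 39658989 for JQ1 and between 37733027 and 38404997 for I-BET 762. The chi-square per gene between libraries of a group was 2.68 to 20.6, and the 3 highest values all involved JQ1 library 18. Of 8 smooth muscle markers, 7 were in the table and all 7 were detected. Their summed level was 20500 to 21136 normalized counts with DMSO, 10661 to 11269 with JQ1 and 11822 to 12374 with I-BET 762. SMTN, which averaged 2324, 2644 and 2657 in that order, was higher after treatment, while the others were lower. The sum of 6 mesenchymal markers was 157270 to 168378, 163845 to 176084 and 143873 to 148202 in the same order, and it hides opposite moves. VIM averaged 114903, 156300 and 125006 normalized counts, while COL3A1 averaged 28783, 2645 and 5673. The sum of 5 epithelial markers was 1212 to 1271, 511 to 602 and 497 to 544. The summed level of 3 endothelial markers did not exceed 7.40 normalized counts in any library, and that of the 2 immune markers in the table did not exceed 4.01.

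CAPN6 RNA was found at a low level in every DMSO library and at 0 in every treated library. The gene (ENSG00000077274.9) lies on the minus strand of the X chromosome, from 111245099 to 111270483, and its exons share no bases with another annotated gene. Its normalized count, the read count divided by the size factor of the library, was 33.9, 31.4 and 18.2 in the 3 DMSO libraries, which is 35, 34 and 20 reads. It was 0 in all 4 JQ1 and all 3 I-BET 762 libraries, so the groups did not overlap. The DMSO mean was 27.8 ± 8.44 (SD, n = 3). A count of 0 allows up to 3 reads, or at most 3.30 normalized counts in a JQ1 library and 3.01 in an I-BET 762 library, for counting error alone. Against those limits per library, the DMSO mean was at least 8.45-fold higher than with JQ1 and at least 9.26-fold higher than with I-BET 762. For the lowest DMSO library these bounds were 5.52-fold and 6.05-fold. In bulk RNA, fewer cells that carry CAPN6 RNA and less CAPN6 RNA per cell cannot be told apart.

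CAPN6 was a weakly expressed gene even in DMSO. Of the tested genes, 12.4% had a lower DMSO mean, and the median tested gene stood at 821 normalized counts. It passed the filter on low values, a normalized count of at least 10 in at least 3 libraries, through the DMSO libraries alone. Among 14533 genes with a DMSO mean of at least 10, CAPN6 was the only gene with 0 reads in every treated library. Of the same genes, 75, CAPN6 included, had at most 3 reads in every treated library. CAPN6 was chosen for this loss, so its place in these counts is a description only. There were 1018 genes with a DMSO mean of 20 to 40, near that of CAPN6.

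**Figure D1:**
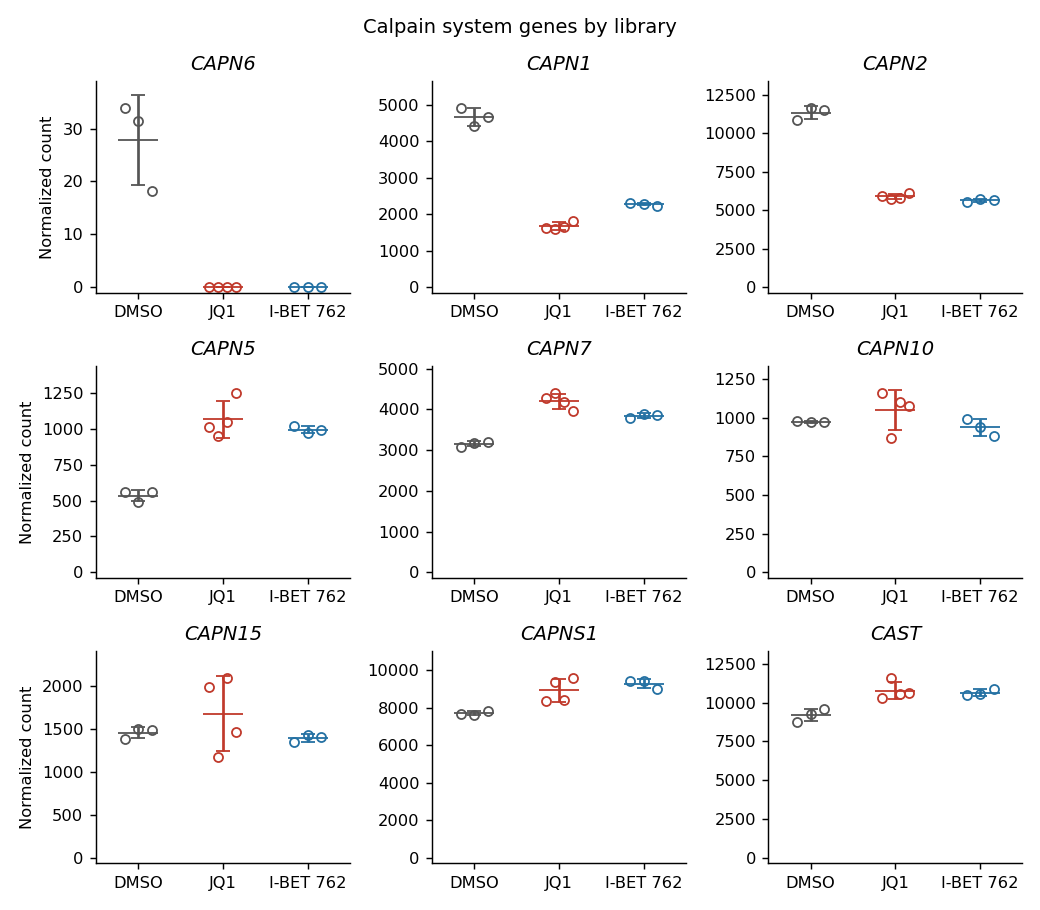
Normalized counts (y axis, linear from 0) of the 9 calpain system genes in each library (open circles), with the group mean and SD, by treatment (x axis). CAPN6 is between 18.2 and 33.9 in DMSO and at 0 in the 7 treated libraries, CAPN1 and CAPN2 are lower in every treated library than in DMSO, and CAPN5 and CAPN7 are higher.

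The RNA of both conventional protease subunits was reduced by about the same factor with I-BET 762, and that of CAPN1 was reduced further with JQ1. A gene was called a differentially expressed gene (DEG) when the adjusted p-value was under 0.05 and the fold change exceeded 1.5. With JQ1, 3 of the 8 tested genes were DEGs, against 36.1% of all tested genes. Of these, 2 fell, against 22.8% of all tested genes, and 1 rose, against 13.3%. With I-BET 762, which was compared with the same DMSO libraries, 3 of 8 were DEGs (26.9% of all tested genes), of which 2 fell (17.9%) and 1 rose (8.96%). The share of DEGs among the calpain genes was close to the background with JQ1, so the counts are not a result about calpains, and the size and direction for each gene are what follows.

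CAPN1, the large subunit of µ-calpain (ENSG00000014216.16, chromosome 11, 65180566 to 65212006, plus strand), had 4921, 4421 and 4676 normalized counts in the DMSO libraries. It had 1637, 1612, 1655 and 1831 in the JQ1 libraries and 2309, 2285 and 2244 in the I-BET 762 libraries. The 3 groups did not overlap, with DMSO highest and JQ1 lowest. The log2 fold change was -1.47 ± 0.05 (SE; adjusted p = 1.81e-12) with JQ1, a 2.77-fold fall, and -1.03 ± 0.06 (adjusted p = 6.46e-10) with I-BET 762, a 2.05-fold fall. CAPN1 shares 433 exon bases, 5.77% of its exons, with CAPN1-AS1 on the other strand, and the strand setting of the counting is not given in the sources used here. CAPN1-AS1 was itself lower, at 191 ± 18.4 normalized counts with DMSO, 97.3 ± 7.38 with JQ1 and 96.4 ± 3.96 with I-BET 762. It was a DEG with JQ1 (log2 fold change -0.96, adjusted p = 2.45e-06) and with I-BET 762 (-0.97, adjusted p = 7.51e-06).

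CAPN2, the large subunit of m-calpain (ENSG00000162909.18, chromosome 1, 223701593 to 223776018, plus strand), stood at 10879, 11652 and 11497 normalized counts with DMSO. Its values were 5952, 5762, 5792 and 6134 with JQ1 and 5532, 5754 and 5642 with I-BET 762. Every treated library was below every DMSO library. The fall was 1.92-fold with JQ1 (log2 fold change -0.94 ± 0.04, adjusted p = 2.48e-11) and 2.01-fold with I-BET 762 (-1.01 ± 0.05, adjusted p = 7.92e-11).

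The partners that bind these proteases did not follow them. CAPNS1, the small subunit shared by both (ENSG00000126247.11, chromosome 19, 36139953 to 36150353, plus strand), had 7662, 7629 and 7814 normalized counts with DMSO. It had 8362, 9359, 8392 and 9575 with JQ1 and 9406, 9414 and 8998 with I-BET 762, so all treated libraries lay above DMSO. The difference was 1.16-fold with JQ1 (log2 fold change 0.21 ± 0.05, adjusted p = 0.00213) and 1.20-fold with I-BET 762 (0.27 ± 0.06, adjusted p = 0.000685), below the 1.5-fold threshold.

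CAST, which encodes the inhibitor calpastatin (ENSG00000153113.24, chromosome 5, 96525267 to 96779595, plus strand), had 8767, 9265 and 9568 normalized counts with DMSO. The JQ1 libraries had 10331, 11580, 10558 and 10598 and the I-BET 762 libraries 10495, 10538 and 10910, again all above DMSO. Its difference was 1.17-fold with JQ1 (log2 fold change 0.23 ± 0.05, adjusted p = 0.000675) and 1.16-fold with I-BET 762 (0.21 ± 0.05, adjusted p = 0.00260). CAST shares 299 exon bases with ERAP1 and 378 with a noncoding RNA gene, both on the other strand. When all libraries were scaled to equal totals, the median of all tested genes moved by -0.175 with JQ1 and -0.0969 with I-BET 762 on the log2 scale. On that scale the JQ1 differences of CAPNS1 (0.02, adjusted p = 0.656) and CAST (0.04, adjusted p = 0.334) no longer passed the test. The I-BET 762 differences of CAPNS1 (0.17, adjusted p = 0.00894) and CAST (0.12, adjusted p = 0.0215) still passed it. CAPN1, CAPN2, CAPN5 and CAPN7 kept their directions and adjusted p-values under 0.05 with both inhibitors. With that scaling, 8.24% of all tested genes rose and 28.4% fell as DEGs with JQ1.

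CAPN5 was the calpain gene called higher after treatment. It encodes a large subunit without the calcium-binding penta-EF-hand domain of the conventional calpains (ENSG00000149260.18, chromosome 11, 77066961 to 77126155, plus strand). Its normalized counts were 558, 490 and 556 with DMSO, 1013, 949, 1048 and 1248 with JQ1 and 1016, 970 and 990 with I-BET 762. No treated library overlapped DMSO. It rose 1.98-fold with JQ1 (log2 fold change 0.99 ± 0.08, adjusted p = 2.59e-08) and 1.86-fold with I-BET 762 (0.89 ± 0.09, adjusted p = 3.58e-07).

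CAPN7, a calpain known for binding ESCRT-III proteins, which cut membrane necks in endosome sorting and cell division, moved in the same direction by less. The gene (ENSG00000131375.10) lies on the plus strand of chromosome 3, from 15206152 to 15252916. DMSO libraries had 3083, 3175 and 3206 normalized counts, JQ1 libraries 4269, 4398, 4184 and 3960, and I-BET 762 libraries 3778, 3895 and 3855. The groups were again apart from DMSO. The difference was 1.33-fold with JQ1 (log2 fold change 0.41 ± 0.05, adjusted p = 7.00e-07) and 1.22-fold with I-BET 762 (0.28 ± 0.05, adjusted p = 0.000119), so CAPN7 was not a DEG.

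CAPN10 and CAPN15 did not pass the test in either comparison. CAPN10, known from genetic studies of diabetes (ENSG00000142330.20, chromosome 2, 240586734 to 240617705, plus strand), had 979, 973 and 969 normalized counts with DMSO. It had 1159, 866, 1099 and 1075 with JQ1 and 995, 937 and 880 with I-BET 762, and both treated groups overlapped DMSO. Its log2 fold change was 0.10 with JQ1 (95% interval -0.08 to 0.28, adjusted p = 0.293) and -0.06 with I-BET 762 (95% interval -0.25 to 0.13, adjusted p = 0.604). CAPN10 shares 654 exon bases, 8.77% of its exons, with GPR35 on the same strand, so part of its reads cannot be assigned.

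CAPN15, the large calpain with zinc fingers (ENSG00000103326.12, chromosome 16, 527712 to 554636, plus strand), was the member that varied most within a group among those above the CAPN6 level. CAPN15 shares 476 exon bases, 5.96% of its exons, with a noncoding RNA gene on the other strand. Its 3 DMSO values were 1381, 1500 and 1485 normalized counts. JQ1 libraries 17 and 19 stood high at 1990 and 2089, and libraries 18 and 20 stood lower at 1174 and 1456. The I-BET 762 libraries had 1348, 1433 and 1401. The log2 fold change was 0.17 with JQ1 (95% interval -0.13 to 0.47, adjusted p = 0.301) and -0.06 with I-BET 762 (95% interval -0.38 to 0.26, adjusted p = 0.740). Without JQ1 library 18, the log2 fold change with JQ1 was 0.19 for CAPN10 (adjusted p = 0.00759) and 0.33 for CAPN15 (adjusted p = 0.00624), both under 1.5-fold. That library also gave the lowest CAPN10 and the highest CAST value of the JQ1 group.

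**Figure D2:**
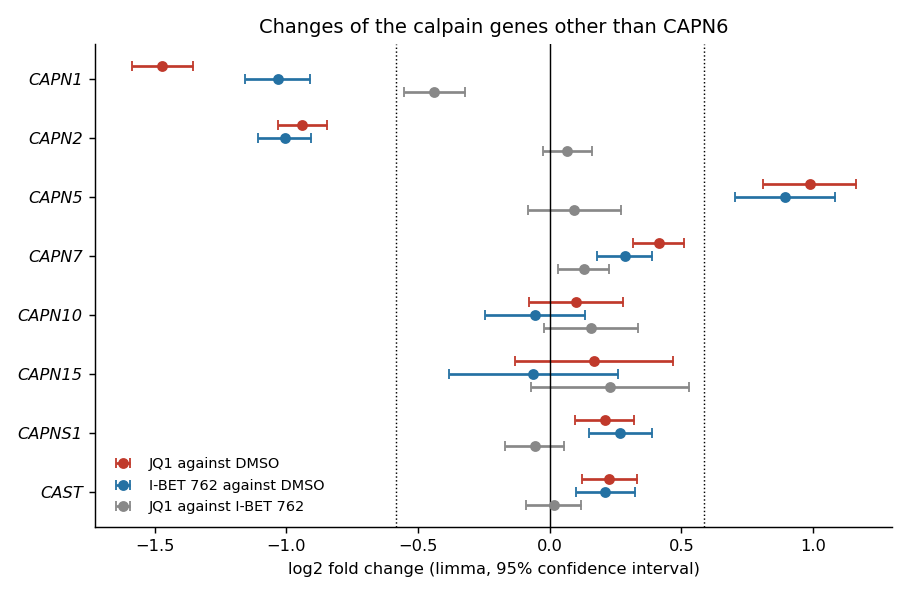
Log2 fold change (x axis, limma, with 95% confidence interval) of the 8 tested calpain genes (y axis) for JQ1 against DMSO, I-BET 762 against DMSO and JQ1 against I-BET 762, with dotted lines at 1.5-fold. CAPN1 (-1.47 and -1.03) and CAPN2 (-0.94 and -1.01) lie left of the dotted line and CAPN5 (0.99 and 0.89) right of it with both inhibitors, and every JQ1 against I-BET 762 value lies between the lines.

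Without the fold threshold, 6 of the 8 genes had an adjusted p under 0.05 with JQ1, against 71.7% of all tested genes, and 6 with I-BET 762, against 61.1%. In 6 of 8 genes the JQ1 and DMSO libraries did not overlap, as was the case for 68.4% of all tested genes. For I-BET 762 and DMSO the number was also 6, against 71.0%. The exceptions in each count were CAPN10 and CAPN15. The median log2 fold change of the 8 genes was 0.19 with JQ1 and 0.08 with I-BET 762, beside 0.01 and -0.00 over all tested genes.

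Both inhibitors were used at the same dose and time, so their readouts were compared directly as 1 pair of compounds over the 8 genes. Which inhibitor a library received rests on the labels alone, as no gene measured here marks either compound. Over all 14839 tested genes, 5358 were DEGs with JQ1 and 3991 with I-BET 762. The DEG totals in the paper, obtained with other methods, stand in the opposite order between the compounds. Whether the labels of the compounds were exchanged was not tested, and every difference between the compounds given here depends on them. CAPN1 was lower with JQ1 than with I-BET 762 (log2 difference -0.44, 95% interval -0.55 to -0.32, adjusted p = 3.58e-05), which is under the 1.5-fold threshold. CAPN7 was 1.09-fold higher with JQ1 (log2 difference 0.13, 95% interval 0.03 to 0.23, adjusted p = 0.0497). Under alternative processing this CAPN7 difference ranged from 0.0395 to 0.1565, with adjusted p by limma up to 0.475, so it did not always pass. No difference passed the test for CAPN2 (0.07, 95% interval -0.03 to 0.16, adjusted p = 0.280), CAPN5 (0.09, -0.08 to 0.27, adjusted p = 0.435) or CAST (0.01, -0.09 to 0.12, adjusted p = 0.854). The same held for CAPNS1 (-0.06, -0.17 to 0.05, adjusted p = 0.447), CAPN10 (0.16, -0.02 to 0.33, adjusted p = 0.179) and CAPN15 (0.23, -0.07 to 0.53, adjusted p = 0.248). All of these intervals lie within 1.5-fold in either direction. CAPN6 was at 0 reads with both compounds, below the limit at which they could be compared. By limma, 0 of 8 genes were DEGs between the compounds, against 5.31% of all tested genes, with 2 of 8 at an unadjusted p under 0.05 and 0 DEGs by limma-voom. Of the 8, 2 had an adjusted p under 0.05 (27.3% of all tested genes), and in 3 the libraries of the compounds did not overlap (33.8%). These 3 were CAPN1, lower with JQ1, and CAPN2 and CAPN7, higher with JQ1.

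Levels of different genes were compared per kilobase (kb) of exon, over the union of all annotated isoforms, which understates genes with many alternative exons such as CAST. In DMSO, CAPNS1 stood highest at 2484 ± 31.9 normalized counts per kb (SD, n = 3). CAPN2 followed at 1321 ± 47.6, CAST at 690 ± 30.3, CAPN1 at 623 ± 33.3 and CAPN7 at 564 ± 11.5. CAPN15 at 182, CAPN10 at 131, CAPN5 at 87.1 and CAPN6 at 7.88 per kb came last, and no neighbours in this order overlapped. With JQ1 the order was CAPNS1 at 2878, then CAST at 807, CAPN7 at 751 and CAPN2 at 688, whose neighbours overlapped. CAPN1 at 224, CAPN15 at 210, CAPN5 at 173 and CAPN10 at 141 per kb followed, again with overlap between neighbours. With I-BET 762 the order was the same for CAPNS1 (2991), CAST (798), CAPN7 (687), CAPN2 (657) and CAPN1 (304), then CAPN15 (174), CAPN5 (162) and CAPN10 (126), and all neighbours were apart.

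The make-up of the large-subunit RNA therefore differed between the groups. The summed level of the 7 large subunits was 2915 ± 34.5 normalized counts per kb with DMSO, 2188 ± 68.5 with JQ1 and 2109 ± 21.2 with I-BET 762. CAPN2 made up 45.3% ± 1.23 of it with DMSO (SD, n = 3), 31.5% ± 1.02 with JQ1 (n = 4) and 31.2% ± 0.347 with I-BET 762 (n = 3). CAPN1 made up 21.4% ± 1.32, 10.3% ± 0.613 and 14.4% ± 0.253 in the same order. The share of CAPN7 was 19.3% ± 0.171, 34.4% ± 2.29 and 32.6% ± 0.299, so that its share with I-BET 762, 32.2% to 32.8% by library, lay above that of CAPN2, 30.8% to 31.4%. CAPN5 was at 2.99%, 7.93% and 7.67%, CAPN10 at 4.48%, 6.42% and 5.96%, and CAPN15 at 6.25%, 9.55% and 8.27%. CAPN6 was 0.271% ± 0.0845 of the DMSO total.

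**Figure D3:**
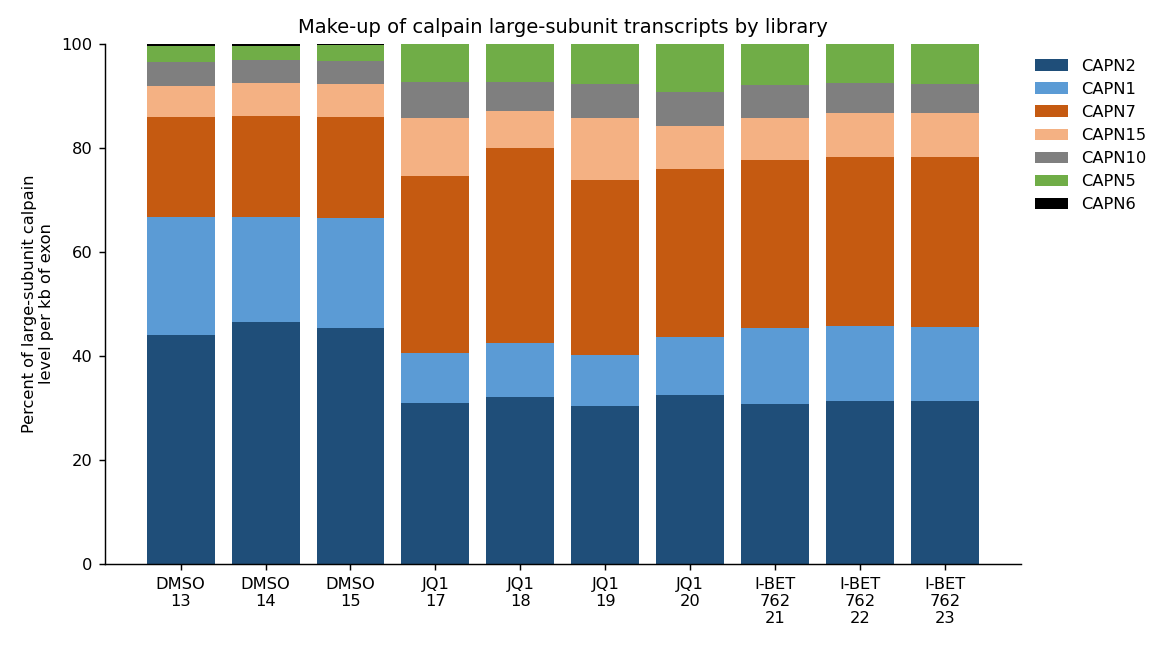
Share of each large subunit (y axis, percent of the summed normalized count per kb of exon) in each of the 10 libraries (x axis, treatment and library number). CAPN2 and CAPN1 together form most of the DMSO bars, and the share of CAPN7 is 19.1% to 19.4% in DMSO libraries and 32.2% to 37.6% in treated libraries.

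Ratios within the calpain system, which do not depend on how libraries are scaled, changed by more than the spread between libraries. The ratio of CAPNS1 to the sum of CAPN1 and CAPN2, per kb, was 1.28 ± 0.0119 with DMSO, 3.15 ± 0.203 with JQ1 and 3.11 ± 0.0756 with I-BET 762. The ratio of the inhibitor gene CAST to the same sum was 0.355 ± 0.0120, 0.886 ± 0.0667 and 0.831 ± 0.0228. In both ratios the lowest treated library was above the highest DMSO library. The ratio of CAPN2 to CAPN1 was 2.13 ± 0.187 with DMSO and 2.16 ± 0.0611 with I-BET 762, whose libraries overlapped, and 3.07 ± 0.107 with JQ1, whose libraries lay above both. These are RNA ratios, and protein and protease activity were not measured here.

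Of 8 further calpain family genes, 7 were in the table, and CAPN12 alone passed the filter on low values. CAPN12 fell from 19.4 ± 4.44 normalized counts with DMSO to 7.31 ± 2.15 with JQ1 (log2 fold change -1.31, adjusted p = 0.00915) and 9.60 ± 5.16 with I-BET 762 (-1.07, adjusted p = 0.0451). These means rest on 17 to 25 reads per DMSO library and 4 to 14 per treated library, and CAPN12 shares 868 exon bases, 14.6% of its exons, with ACTN4 on the other strand. The call with JQ1 was lost without DMSO library 13. That with I-BET 762 was lost without any of the 3 DMSO libraries, JQ1 library 20 or I-BET 762 libraries 21 and 23. CAPN3, the muscle calpain, was not tested, with 10.6 normalized counts in DMSO, 3.62 with JQ1 and 2.96 with I-BET 762. CAPN14 had 5.94, 1.504 and 2.96, CAPN9 had 4.05, 5.13 and 7.28, and CAPNS2 had 1.86, 4.23 and 3.96 in the same order. CAPN8 and CAPN11 did not exceed 2.01 and 1.01 normalized counts in any library.

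The 5 genes whose log2 values followed CAPN6 most closely over the 10 libraries were ADD2 (Pearson's r = 0.995), IRAK1 and TRANK1 (0.994 each), and MICOS10-NBL1 and NBL1 (0.993 each), out of 14838. These r values rest on the gap between the DMSO and treated libraries, which share their treatment. MICOS10-NBL1 and NBL1 had identical values in every library, and so count as 1 pattern. None of the 5 was lost as CAPN6 was. ADD2, a subunit of the membrane-skeleton protein adducin, averaged 297 normalized counts with DMSO, 112 with JQ1 and 111 with I-BET 762. IRAK1, a kinase of interleukin-1 receptor signalling, averaged 3610, 1170 and 1238. TRANK1 averaged 1814, 453 and 465, and NBL1, which encodes a secreted BMP antagonist, 1246, 790 and 822.

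Of 9 genes in the table that start within 1 Mb of CAPN6, 4 were tested. PAK3, a kinase downstream of the small GTPases RAC1 and CDC42, starts 326.2 kb away and fell from 217 ± 8.51 normalized counts with DMSO to 77.5 ± 9.34 with JQ1 (log2 fold change -1.48, adjusted p = 5.40e-08) and 104 ± 13.4 with I-BET 762 (-1.07, adjusted p = 8.52e-06). RTL9, a gene derived from a retrotransposon, starts 911.6 kb away and fell with JQ1, from 13.7 ± 1.03 to 3.66 normalized counts, on 2 to 4 reads per JQ1 library (-1.69, adjusted p = 0.000578). With I-BET 762 it stood at 12.2 ± 3.12 (-0.18, adjusted p = 0.709), and JQ1 and I-BET 762 differed (-1.51, adjusted p = 0.00619). AMMECR1, which starts 830.2 kb away, was not a DEG, with 1044 normalized counts in DMSO, 818 with JQ1 (-0.35) and 854 with I-BET 762 (-0.29). ALG13, an enzyme of N-glycan synthesis on the other side of CAPN6, was not a DEG, with 2551, 3309 (0.37) and 3615 (0.50). The tested neighbours thus did not share a direction.

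**Figure D4:**
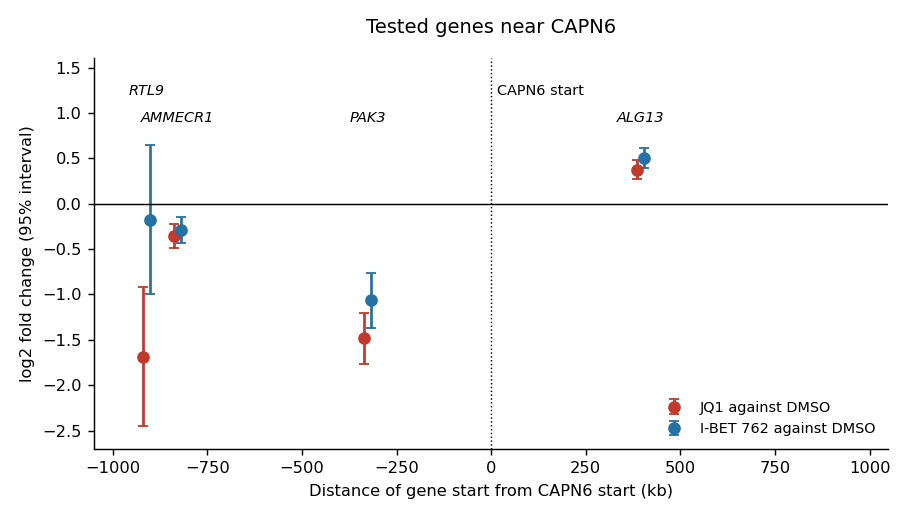
Log2 fold change with 95% interval (y axis) of the 4 tested genes that start within 1 Mb of CAPN6, against the distance of their start from the CAPN6 start in kb (x axis, increasing coordinates to the right), for each inhibitor against DMSO. Points of a gene are set slightly apart, and PAK3 lies below 0 with both inhibitors while ALG13 lies above 0.

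Known substrates of the conventional calpains were followed as a list of 18 cytoskeleton and adhesion genes, all tested. With JQ1, 3 rose and 2 fell as DEGs, beside 13.3% and 22.8% of all tested genes, and with I-BET 762, 3 rose and 1 fell, beside 8.96% and 17.9%. Their median log2 fold change was 0.21 and 0.12. ITGB3, the integrin β3 subunit, rose from 32.4 ± 2.14 normalized counts with DMSO to 165 ± 10.6 with JQ1 (log2 fold change 2.31 ± 0.12, adjusted p = 9.30e-11) and 157 ± 5.38 with I-BET 762 (2.24 ± 0.13, adjusted p = 8.47e-10). TLN2, which encodes talin 2, rose from 586 to 1966 (1.74, adjusted p = 1.29e-11) and 1826 (1.64, adjusted p = 1.75e-10). SPTAN1, the α-spectrin whose calpain fragment is a standard readout of calpain activity, rose from 18865 to 37021 (0.97, adjusted p = 4.26e-09) and 32906 (0.80, adjusted p = 1.71e-07).

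DES, the muscle intermediate filament desmin, fell from 187 ± 0.570 normalized counts with DMSO to 7.79 ± 5.06 with JQ1 (log2 fold change -4.63, adjusted p = 1.83e-08) and 20.1 ± 1.47 with I-BET 762 (-3.16, adjusted p = 5.78e-06). The JQ1 level is low, so the size of that fall is uncertain. DES is also a smooth muscle marker, and the sum of 7 such markers was lower in every treated library than in every DMSO library, as given above; the part of that in the calpain results was not tested. FLNA, filamin A, named after its values were seen, was a DEG with JQ1 (-0.84, adjusted p = 1.63e-07) and reached -0.57 (adjusted p = 3.61e-05) with I-BET 762. The difference between the inhibitors for FLNA was -0.26 (adjusted p = 0.0272).

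The list around the CAPN6 partner ARHGEF2 held 17 genes for microtubule-binding proteins and small GTPases, of which 16 were tested. With JQ1, 2 rose and 1 fell, and with I-BET 762, 1 rose and 1 fell, against the same shares of all tested genes (13.3% and 22.8%, 8.96% and 17.9%). With equal totals, 1 rose and 2 fell with JQ1. The medians were -0.01 and -0.05. MAP1A, a microtubule-associated protein of neurons, rose from 704 to 1511 normalized counts with JQ1 (log2 fold change 1.10, adjusted p = 6.78e-09) and 1378 with I-BET 762 (0.97, adjusted p = 1.31e-07). MAP2 fell from 97.1 to 26.2 (-1.85, adjusted p = 4.45e-07) and 37.9 (-1.37, adjusted p = 4.00e-05). MAPRE2, a microtubule end-binding protein, and ARHGEF2 itself were named after their values were seen. MAPRE2 was a DEG with JQ1 (0.65, adjusted p = 1.57e-08) and not with I-BET 762 (0.52). ARHGEF2 had 2886 normalized counts with DMSO, 1931 with JQ1 (-0.58, adjusted p = 6.44e-08) and 2061 with I-BET 762 (-0.48, adjusted p = 1.96e-06), short of 1.5-fold in both. The JQ1 value lies at the edge of the threshold: ARHGEF2 was a DEG with equal totals (-0.76), with equal upper quartiles (-0.59) and without DMSO library 14 or 15 or JQ1 library 19 or 20 (each -0.60), while MAPRE2 with equal totals (0.46) was not.

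Of 16 genes listed around the ESCRT-III proteins that CAPN7 binds, 2 rose and 1 fell with JQ1 as DEGs by limma. With I-BET 762, 0 rose and 1 fell. Over all tested genes 13.3% rose and 22.8% fell with JQ1, and 8.96% and 17.9% with I-BET 762. With equal totals the JQ1 split turned to 0 higher and 3 lower. With I-BET 762, 7 were higher at an unadjusted p under 0.05, and 0 rose as DEGs by limma-voom. The medians were 0.22 and 0.09. CHMP4C, an ESCRT-III subunit that acts in the abscission checkpoint, fell from 98.3 ± 7.95 normalized counts to 28.8 ± 3.25 with JQ1 (log2 fold change -1.74, adjusted p = 2.74e-07) and 37.0 ± 5.31 with I-BET 762 (-1.39, adjusted p = 1.20e-05). The genes that rose with JQ1, named after their values were seen, were CHMP2A (0.60, adjusted p = 7.65e-08) and CHMP7 (0.65, adjusted p = 1.72e-09). With equal totals neither was a DEG (0.42 and 0.47), and without DMSO library 13 CHMP2A was not (0.56).

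Of 7 caspases, the cysteine proteases of apoptosis and inflammation listed for contrast, 0 rose and 3 fell with each inhibitor as DEGs by limma, beside 22.8% of all tested genes that fell with JQ1 and 17.9% with I-BET 762. Of the 3, CASP10 passed the filter on low values through the DMSO libraries alone, which fixed the direction of its change in advance. Without any 1 of those libraries it was not tested and 2 caspases fell. Only the other 2 falls can therefore be set against those shares. With either inhibitor, 0 were higher at an unadjusted p under 0.05, and 0 rose as DEGs by limma-voom. The medians, CASP10 included, were -0.18 with JQ1 and 0.00 with I-BET 762. CASP8, the initiator caspase of death receptors, fell from 1308 to 472 normalized counts with JQ1 (log2 fold change -1.47, adjusted p = 1.06e-10) and 589 with I-BET 762 (-1.15, adjusted p = 1.05e-08). CASP4, an inflammatory caspase, fell from 686 to 168 (-2.03, adjusted p = 1.89e-11) and 204 (-1.75, adjusted p = 6.72e-10). CASP10 is given without a test for that reason, at 46.8 ± 9.53 normalized counts with DMSO (40 to 63 reads per library), 2.38 ± 1.76 with JQ1 (0 to 4 reads) and 7.25 ± 2.24 with I-BET 762 (6 to 10 reads).

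**Figure D5:**
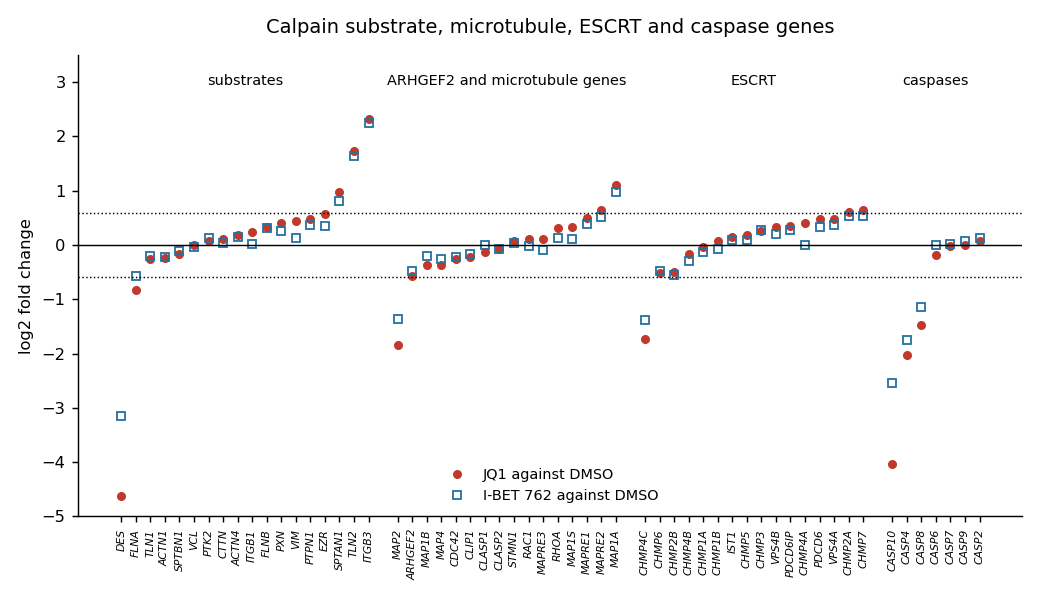
Log2 fold change (y axis) of every tested gene (x axis) of the substrate, ARHGEF2 and microtubule, ESCRT and caspase lists, with JQ1 (filled circles) and I-BET 762 (open squares) against DMSO and dotted lines at 1.5-fold. Most genes lie between the dotted lines, and the lowest and highest points are DES (-4.63) and ITGB3 (2.31), both with JQ1. CASP10, which passed the filter on low values through the DMSO libraries alone, is included.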

How the data were processed

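Total RNA of SK-UT-1 cells was sequenced from stranded libraries. As the authors describe it, reads were checked with FastQC 0.73, trimmed with Trimmomatic, mapped to hg38 with HISAT2 2.2.1 and counted with featureCounts 2.0.3 on Gencode V41 genes, counts were normalized with DESeq2, and outlier samples were excluded. In the deposited table each value is a log2, taken of normalized counts with 1 added. After undoing the log2, 99.73% to 99.77% of the values per library were whole multiples of 1 step (tolerance 0.01), which gave the reads. Groups follow the labelled treatment. The 2 labelled samples not analysed here, of DMSO and of I-BET 762, had no values in the expression table. Whether they are the outliers excluded by the authors is not stated. Log2 values of 14839 genes with a normalized count of at least 10 in at least 3 libraries were fitted with limma 3.58.1 (R 4.3.3) in 1 model over the 10 libraries, with an intensity trend and Benjamini-Hochberg adjustment over all tested genes; fold changes are on the log2(value + 1) scale. Gene positions and exon lengths came from Gencode V44, and promoters from RefSeq. Genes, lists and tests were chosen with earlier results of these data known. Named genes were the 9 members, listed family genes, tested genes within 1 Mb of CAPN6, the 5 genes most correlated with it, and of each list at most 3 rises and 3 falls among DEGs of like direction for JQ1 and I-BET 762. A listed gene is not reported here. The same code was tested on simulated data. Tables were prepared with Python 3.11.15. Alternatives were other pseudocounts, filters, scalings, thresholds and moderation, limma-voom on the recovered reads, and each library left out.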

Additional observations from a re-analysis of the deposited data

Results flagged for a closer look

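Of 24 genes checked for a library far from the rest of its group, 1 stood out. RTL9, which starts 911.6 kb from CAPN6, had 2.18 normalized counts in JQ1 library 18, against 4 to 4.40 in the other 3 JQ1 libraries. On the log2(value + 1) scale, the gap to the nearest library was 0.857 of the range of the group, above Dixon's 95% critical value for 4 libraries. On normalized counts it was 0.823, below that value, so what marks this library depends on the scale. Chance flags about 5% of groups, and the RTL9 values in the JQ1 group rest on 2 to 4 reads per library.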

How the results depend on the processing

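Over 24 member changes (8 genes in 3 comparisons) and 21 alternatives each, 9 changes kept their direction and their side of the threshold throughout. The number of DEGs among the 8 tested calpain genes was 3 with each inhibitor and 0 between them, and with any single library removed it was 3 to 3, 3 to 3 and 0 to 0. Without the fold threshold it was 6 with JQ1, 6 with I-BET 762 and 2 between them, and with a 2-fold threshold it was 1 with JQ1. With equal totals, JQ1 against DMSO turned to -0.0848 for CAPN10 and -0.0184 for CAPN15, and JQ1 against I-BET 762 turned to -0.0222 for CAPN2 and -0.0739 for CAST. With any single library removed, the latter value for CAST was -0.0206 (without JQ1 library 18) to 0.0342. None of these 5 reversed values passed the test. The DMSO mean of CAPN6 ranged from 24.8 to 32.7 and the treated libraries stayed at 0.

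Called genes of the other calpain family were 1 with each inhibitor. With JQ1 they were 3 without a filter and 0 at a mean of at least 100, and 0 to 1 with a library left out. With I-BET 762 they were 0 at a mean of at least 100 and 0 to 1 with a library left out. Called substrates were 16 without the fold threshold and 3 at 2-fold with JQ1, and 13 without the fold threshold with I-BET 762. Called ARHGEF2 and microtubule genes were 12 without the fold threshold with JQ1. With I-BET 762 they were 9 without the fold threshold, 1 at 2-fold and 1 at a mean of at least 100. Called ESCRT genes with JQ1 were 13 without the fold threshold and 1 at 2-fold, and with equal totals they were 0 higher and 3 lower in place of 2 and 1. Called caspases were 2 with either inhibitor without any 1 DMSO library or at a mean of at least 100, and 3, CASP10 included, otherwise. Called ESCRT genes with I-BET 762 were 12 without the fold threshold, 2 with equal totals, 0 at a mean of at least 100 and 1 to 2 with a library left out. The causes were not tested beyond what the filters and thresholds fix by construction. No paired analysis was possible because the groups share no replicate numbers. Depth limits CAPN6, CAPN12, RTL9 and CASP10, whose values rest on few reads, and DES with JQ1, at 7.79 ± 5.06 normalized counts. The 3-read floors cover counting error only, while the 95% intervals reflect the spread between libraries.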
